A study of Mus musculus with 20 samples.

Results

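The mitochondrial ribosome (mitoribosome) genes were described in the liver of fasted mice with and without lipopolysaccharide (LPS), in wild type and in MCAD-/- animals, which are without the medium-chain acyl-CoA dehydrogenase. The 76 genes were all those whose single symbol in the array's probe annotation starts with Mrpl or Mrps and a number, out of 18193 genes with 1 symbol. Of these, 47 were named for the large subunit (Mrpl) and 29 for the small subunit (Mrps). Each gene was read from its brightest probe set. All 76 exceeded 16 intensity units on all 20 arrays, so none was lost to the filter that left 8774 genes to test (above 16 units on at least 5 arrays).

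The mitoribosome sits in the mitochondrial matrix and translates the few messages of mitochondrial DNA, which encode core subunits of the respiratory chain and of ATP synthase. Its RNAs come from mitochondrial DNA, whereas all of its proteins are encoded in the nucleus, made in the cytosol and imported. Part of the proteins have bacterial counterparts, and part are found only in mitochondria. Liver depends on this machinery for fatty acid oxidation during fasting, the pathway in which MCAD acts.

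Wild-type and MCAD-/- male mice received either vehicle or LPS, which makes 4 groups of 5. All were on a mixed BL6/SV129 background, were 50 to 60 days old and were fasted for 12 h after the injection, so that every comparison is one between fasted mice. LPS, a bacterial cell wall component that sets off inflammation, was given at 100 µg per 20 g body weight. The labels do not say whether wild-type and MCAD-/- mice were littermates, so genotype and inherited background cannot be told apart, and RNA of whole liver was measured, so that fewer cells of a type and less RNA per cell cannot be told apart.

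Acadm, the targeted gene, followed the labels: it read 9.03 to 80.2 units in MCAD-/- and 3106 to 4022 in wild type with vehicle, and 14.3 to 218 against 1450 to 2375 with LPS (exact permutation test, two-sided, p = 0.00794 in each, the smallest that 5 against 5 mice can give). The hepatocyte markers summed to 93378 to 107120 units over all arrays, and the T and NK cell, B cell and cholangiocyte markers to at most 29.3. Of 6 tested hepatocyte markers, 1 rose and 3 fell with LPS in wild type, and 1 rose and 4 fell in MCAD-/-. Markers of other cells moved with the groups. The 4 tested neutrophil markers rose with LPS in both genotypes (summed level 28.3 to 199.2 units with vehicle and 1852 to 3945 with LPS). With LPS, 6 of 9 Kupffer cell and macrophage markers fell in wild type and 8 of 9 in MCAD-/-. Of all tested genes 24% and 27.6% fell. In each genotype 1 marker of that list rose, and its highest log2 changes were 5.24 and 4.96. Of 7 endothelial markers, 3 rose and 1 fell with LPS in wild type, and 2 rose and 5 fell in MCAD-/-. Of 6 stellate cell markers, 2 rose and 1 fell in wild type, and 0 rose and 4 fell in MCAD-/-. Over all tested genes 40% and 38.1% rose. Against 9.81% of all tested genes, 6 of 7 endothelial, 6 of 9 Kupffer cell and 4 of 6 stellate cell markers were higher in MCAD-/- than in wild type with vehicle. Their part in the results on the mitoribosome was not tested. Wild-type vehicle mouse 3 and wild-type LPS mouse 4 stood out in the actin control probes, whose 3′ signal exceeded the 5′ signal by 3.18 and 3.69 on the log2 scale, against 1.35 to 2.34 on the other arrays.

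LPS moved the mitoribosome genes in both directions and by modest amounts. In wild type, 28 of the 76 rose, 13 fell and 35 did not pass the test (limma, adjusted p under 0.05 over all 8774 genes). Over all tested genes 64% passed, 40% upward and 24% downward, so that the 41 called mitoribosome genes, 53.9% of the 76, were no larger a share than that of all tested genes. The median log2 change of the 76 was 0.18, the same as that of all tested genes, and single genes ran from −0.80 (Mrps36) to 1.12 (Mrps18b). The 2 medians were 0.19 and 0.11 with a filter of 64 units, and 0.16 and 0.10 with quantile normalization, so their equality depends on the processing. Without the 2 arrays of high actin ratio, 30 rose and 15 fell.

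In MCAD-/- mice, 21 of the 76 rose with LPS, 18 fell and 37 did not pass, against 38.1% higher and 27.6% lower of all tested genes (65.7% in all). The median log2 change was 0.06, against 0.14 over all tested genes, and the range ran from −1.12 (Mrps36) to 0.88 (Mrps18b). Of the 76, 17 lay higher and 16 lower in every LPS mouse than in every vehicle mouse of the same genotype, against 29.6% and 21.7% of all tested genes (51.4% in all). In wild type 18 lay higher and 11 lower without overlap, against 28.9% and 17.3% (46.1% in all).

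The responses of the 2 genotypes, which come from separate mice, followed each other gene by gene. Both called 18 genes higher and 13 lower, and no gene was called in opposite directions. These 31 genes were 75.6% of the calls in wild type and 79.5% of those in MCAD-/-. The same share was not worked out for all tested genes, of which 64% were called in wild type and 65.7% in MCAD-/-. The change had the same sign in 68 of the 76 genes (89.5%, against 86.3% of all tested genes). Across the 76 genes Pearson's r between the 2 log2 changes was 0.93 and Spearman's rho 0.90, as a description over genes that share the same arrays, and r over all tested genes was 0.90. Another 27 genes were called in neither genotype, with log2 changes between −0.15 and 0.42 in wild type and between −0.19 and 0.42 in MCAD-/-.

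**Figure D1:**
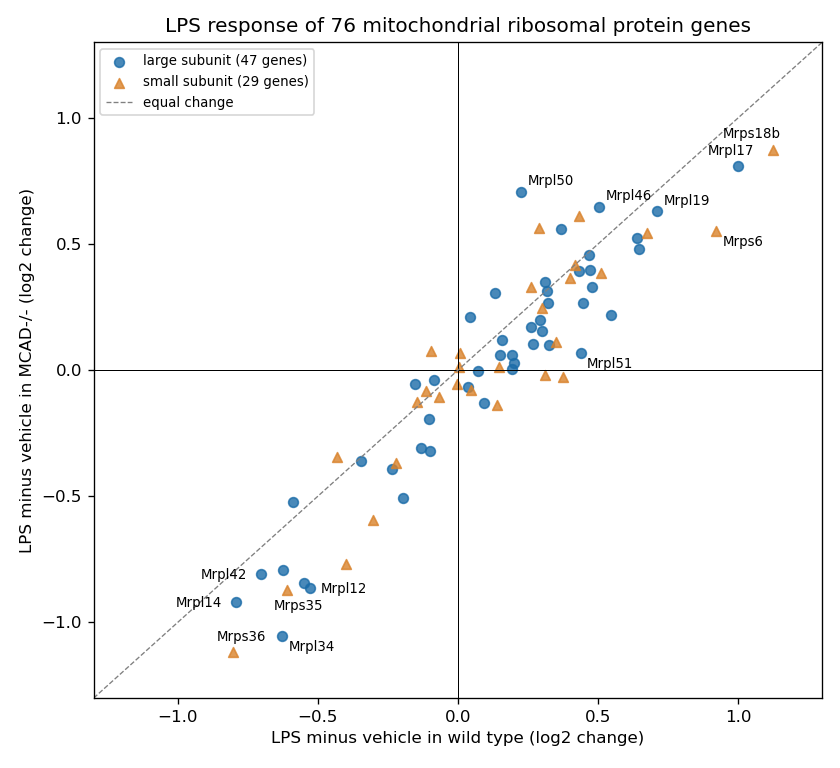
Each point is 1 of the 76 mitoribosome genes, with its log2 change after LPS in wild type on the x axis and in MCAD-/- on the y axis, circles for the large and triangles for the small subunit, and a dashed line at equal change. The points run along the line from Mrps36 at −0.80 and −1.12 to Mrps18b at 1.12 and 0.88, and both subunits are spread over the whole range.

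Mrps18b rose the most in both genotypes. It encodes a small-subunit protein, 1 of 3 descended from the bacterial S18 protein. From mouse 1 to 5, its level was 542, 523, 338, 495 and 499 units in wild type with vehicle and 904, 1041, 1081, 1149 and 997 with LPS, a 2.18-fold rise (log2 change 1.12 ± 0.12 (SE), adjusted p = 1.32e-07). In MCAD-/- it was 498, 489, 488, 496 and 412 with vehicle and 909.5, 902, 934, 721 and 912 with LPS, a 1.83-fold rise (log2 change 0.88 ± 0.12 (SE), adjusted p = 3.05e-06). All 10 LPS mice lay above all 10 vehicle mice. Wild-type vehicle mouse 3, with the high actin ratio, was the lowest of the 20, and without it and wild-type LPS mouse 4 the log2 change in wild type was 0.97.

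Mrpl17, a large-subunit protein beside the exit of the peptide tunnel, came next. Its levels were 587, 636, 478, 585 and 623 units in wild type with vehicle and 1170, 1291, 1111, 1095 and 1136 with LPS (log2 change 1.00 ± 0.10 (SE), adjusted p = 8.75e-08). In MCAD-/- mice they were 489, 547, 646, 582 and 538 with vehicle and 1116, 1038, 978, 820.1 and 963 with LPS (log2 change 0.81 ± 0.10 (SE), adjusted p = 1.3e-06). The lowest LPS mouse, at 820 units, was above the highest vehicle mouse, at 646, and the spread within each group was small beside the rise.

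Mrps6, a small-subunit protein with a bacterial counterpart, rose 1.89-fold in wild type (log2 change 0.92 ± 0.12 (SE), adjusted p = 1.23e-06) and 1.47-fold in MCAD-/- (log2 change 0.55 ± 0.12 (SE), adjusted p = 0.000389). Its vehicle mice read 149.8, 165, 157, 171 and 143 units in wild type and 163, 159.6, 189, 177 and 152 in MCAD-/-, and its LPS mice 308, 323, 252, 369 and 249 and 266, 297, 234, 218 and 222. The groups did not overlap in either genotype. A second, dimmer probe set of Mrps6 rose as well, by log2 changes of 0.99 and 0.84 (adjusted p = 0.000128 and 0.000622 in limma over single probe sets). Mrpl19, whose protein lies at the contact between the subunits, went from 72, 64.6, 91.5, 69.5 and 67.3 to 127, 138, 112, 120.2 and 99.7 units in wild type (log2 change 0.71 ± 0.12 (SE), adjusted p = 2.23e-05) and from 84.3, 75.6, 69.6, 83.1 and 77.8 to 106, 125, 121, 109 and 145 in MCAD-/- (log2 change 0.63 ± 0.12 (SE), adjusted p = 8.05e-05).

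Mrpl50 and Mrpl46 had the next largest rises in MCAD-/-. Mrpl46, of the central protuberance of the large subunit, changed by log2 change 0.65 ± 0.12 (SE), adjusted p = 6.71e-05 there and by log2 change 0.51 ± 0.12 (SE), adjusted p = 0.000835 in wild type. Mrpl50, a large-subunit protein found only in mitochondria, read 131, 150.3, 218, 156 and 133 units with vehicle and 318, 277, 263, 219 and 203 with LPS in MCAD-/- (log2 change 0.71 ± 0.19 (SE), adjusted p = 0.00333). Vehicle mouse 3 overlapped the LPS mice. In wild type it did not pass, with 181, 205, 206, 196 and 231 units against a wide 289.6, 346, 264, 146 and 197 with LPS (log2 change 0.23 ± 0.19 (SE), adjusted p = 0.316). It passed there without LPS mouse 4, the lowest of its group and an array of high actin ratio (0.40, adjusted p = 0.0473). Without both such arrays it did not pass (0.41, adjusted p = 0.0607). The difference between the responses did not pass either (log2 change 0.48 ± 0.27 (SE), adjusted p = 0.339). A second, dimmer probe set of Mrpl50 passed in neither genotype (limma over single probe sets). Its log2 changes were 0.23 in MCAD-/- (adjusted p = 0.157) and −0.06 in wild type (adjusted p = 0.714).

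Mrps36 fell the most. Its symbol places it in the small subunit, but the protein is now known as a component of the 2-oxoglutarate dehydrogenase complex of the citric acid cycle. It read 60.6, 63.2, 69.2, 65.3 and 56 units in wild type with vehicle and 38.9, 41.2, 27.7, 35.7 and 37.9 with LPS (log2 change −0.80 ± 0.15 (SE), adjusted p = 0.000105). In MCAD-/- it read 99.4, 96, 82.9, 121 and 128 with vehicle and 44.3, 50.7, 34.6, 60.8 and 53.9 with LPS (log2 change −1.12 ± 0.15 (SE), adjusted p = 2.06e-06). Within each genotype all LPS mice lay below all vehicle mice, and the MCAD-/- vehicle mice stood above all others.

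Mrpl34, a small basic large-subunit protein with a bacterial counterpart, fell in MCAD-/-, from 288, 345, 375, 296 and 227 to 159, 189, 105, 179 and 114 units (2.08-fold lower, log2 change −1.05 ± 0.18 (SE), adjusted p = 4.78e-05). In wild type the fall from 286, 373, 239, 324 and 345 to 228, 264, 166, 175 and 187 was smaller (log2 change −0.63 ± 0.18 (SE), adjusted p = 0.00556), with overlap through vehicle mouse 3 and LPS mouse 2. The test of the difference did not pass (log2 change −0.43 ± 0.26 (SE), adjusted p = 0.377).

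Mrpl14, to which an assembly and anti-association factor docks, went from 101, 114, 125, 131 and 125 to 89.9, 79.5, 48.8, 60.4 and 72.3 units in wild type (log2 change −0.79 ± 0.18 (SE), adjusted p = 0.000773). In MCAD-/- it went from 86.3, 128, 143, 124 and 88.9 to 65.1, 76.9, 46.5, 66.2 and 47 (log2 change −0.92 ± 0.18 (SE), adjusted p = 0.000177). No LPS mouse reached a vehicle mouse of its genotype. Mrpl42, a mitochondria-specific large-subunit protein, changed by log2 change −0.70 ± 0.15 (SE), adjusted p = 0.000317 in wild type and by log2 change −0.81 ± 0.15 (SE), adjusted p = 7.13e-05 in MCAD-/-. Its 10 vehicle mice lay between 804 and 1040 units and its 10 LPS mice between 408 and 767.

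Mrps35, a mitochondria-specific protein of the small-subunit head, fell with little spread. It read 223, 206, 207, 204 and 203 units in wild type with vehicle and 139, 132, 130.3, 139 and 143 with LPS (log2 change −0.61 ± 0.08 (SE), adjusted p = 3.05e-06). The MCAD-/- mice read 257, 233, 216, 288 and 222 and 129, 132, 134, 129 and 138 (log2 change −0.87 ± 0.08 (SE), adjusted p = 2.71e-08). With LPS the 10 mice of both genotypes lay within 129 to 143 units, and with vehicle all 10 were above 200.

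**Figure D2:**
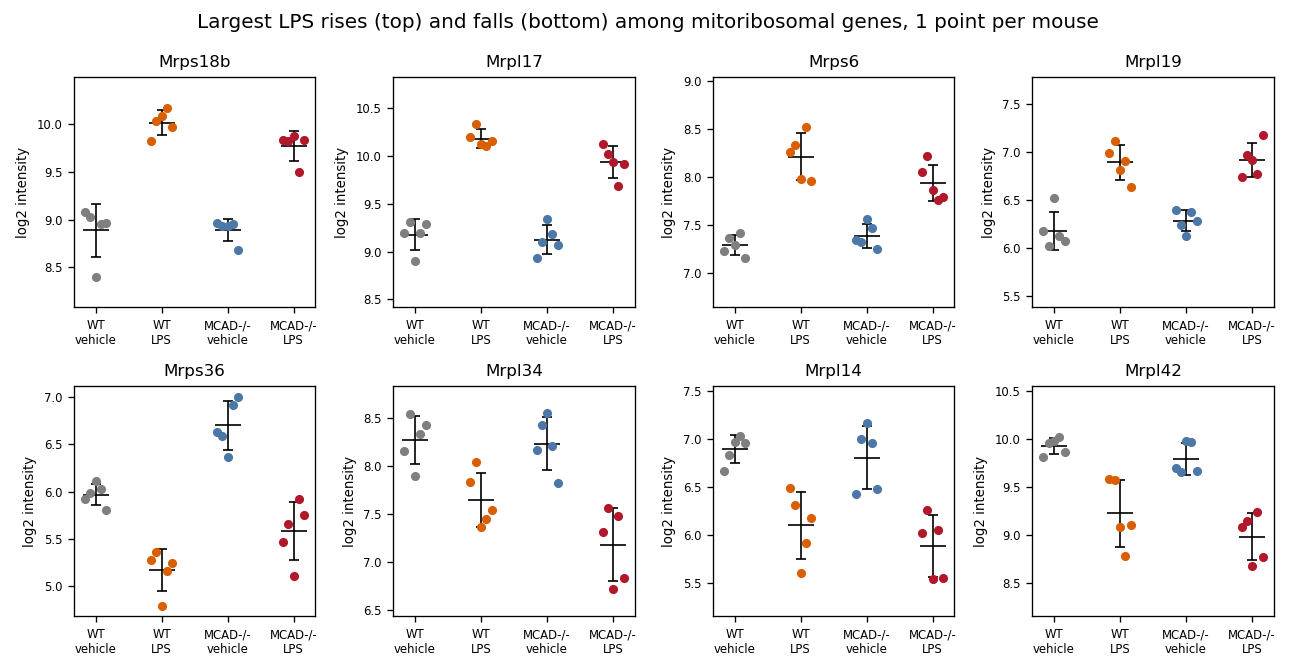
Each panel gives log2 intensity (y axis) of 1 gene in the 4 groups, with 1 point per mouse and the mean ± SD of 5 mice. In the top row Mrps18b, Mrpl17, Mrps6 and Mrpl19 are higher in every LPS mouse than in every vehicle mouse, and in the bottom row Mrps36, Mrpl14 and Mrpl42 are lower in every LPS mouse within each genotype, while Mrpl34 overlaps in wild type.

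The stretches upstream of the strongest risers and fallers are shown because they can be read beside these values. They are the 250 bases before the RefSeq gene start on the gene's own strand (build GRCm38.p6). Capitals mark matches to the core of the ETS family (CCGGAAG, read by GABP, also called NRF2), to nuclear respiratory factor 1 (its palindromic site with any 2 middle bases, or the shorter form GCATGCGC), to YY1 (AAGATGGC) and to the CCAAT box (CCAAT), on either strand.
Mrpl17, chr7:105811088-105811337, minus strand: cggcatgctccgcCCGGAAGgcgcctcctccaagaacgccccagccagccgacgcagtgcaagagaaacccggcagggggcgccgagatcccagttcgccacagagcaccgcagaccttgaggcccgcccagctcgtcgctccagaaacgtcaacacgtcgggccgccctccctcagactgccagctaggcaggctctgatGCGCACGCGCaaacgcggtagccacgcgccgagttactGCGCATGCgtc
Mrps18b, chr17:35916441-35916690, minus strand: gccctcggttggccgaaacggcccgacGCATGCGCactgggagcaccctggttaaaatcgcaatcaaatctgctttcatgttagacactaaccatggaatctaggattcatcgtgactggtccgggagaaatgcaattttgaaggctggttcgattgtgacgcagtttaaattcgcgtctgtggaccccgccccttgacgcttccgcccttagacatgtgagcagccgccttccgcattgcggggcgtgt
Mrpl34, chr8:71464676-71464925, plus strand: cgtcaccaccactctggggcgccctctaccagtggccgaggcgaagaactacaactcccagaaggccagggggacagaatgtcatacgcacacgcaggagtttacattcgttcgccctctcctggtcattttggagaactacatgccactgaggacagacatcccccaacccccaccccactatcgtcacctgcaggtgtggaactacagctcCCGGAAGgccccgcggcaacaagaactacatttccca
Mrps36, chr13:100744660-100744909, minus strand: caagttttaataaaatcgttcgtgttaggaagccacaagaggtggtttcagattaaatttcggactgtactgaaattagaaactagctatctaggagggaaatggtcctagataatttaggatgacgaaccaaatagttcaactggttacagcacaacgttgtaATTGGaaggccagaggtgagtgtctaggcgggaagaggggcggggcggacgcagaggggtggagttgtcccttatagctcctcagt

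Of the patterns marked, Mrpl17 held an ETS match, a nuclear respiratory factor 1 match and the shorter form of the latter, Mrps18b the shorter form alone in these bases, Mrpl34 an ETS match and Mrps36 a CCAAT box. The ETS core stood upstream of a gene that rose and of one that fell. Windows of 300 bases, 250 before and 50 after the start, were on hand for 67 of the 76 genes, and the other 9 are Mrps28, Mrpl19, Mrpl15, Mrpl38, Mrpl54, Mrpl13, Mrps34, Mrps35 and Mrpl4. The ETS core was in 25 of 67 windows (37.3%), against 9.93% of the 27025 genes with a window and 21.9% of the tested ones. YY1's motif was in 17.9%, against 3.19% and 5.87%, and that of nuclear respiratory factor 1 in 19.4%, against 7% and 16.3%. At least 1 of these 3 was in 42 windows (62.7%, against 17.9% of all and 38.1% of tested genes).

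Genes with and without a motif differed little in their median response for some patterns and more for others, which were not tested. The median log2 change in wild type was 0.19 for the 25 genes with the ETS core and 0.15 for those without, and 0.12 and 0.04 in MCAD-/-. With the YY1 motif the medians were 0.08 and 0.23 without in wild type, and 0.04 and 0.10 in MCAD-/-. Of the 25 genes with the ETS core, 9 rose and 3 fell in wild type, where 40% of all tested genes rose and 24% fell. The palindromic site of nuclear respiratory factor 1 was held by 13 genes, of which 5 rose and 4 fell in wild type. Its medians were 0.19 with and 0.15 without in wild type, and 0.005 and 0.07 in MCAD-/-. The shorter form was in 11.9% of windows (3.05% of all and 6.52% of tested genes). Of its 8 genes 5 rose and 1 fell in wild type, against the same 40% and 24% of all tested genes. There the medians were 0.35 with and 0.14 without the shorter form, and 0.37 and 0.01 in MCAD-/-. The 5 genes with the TATA box had medians of −0.15 (wild type) and −0.12 (MCAD-/-), against 0.17 and 0.07 for genes without it. The CCAAT box was in 38.8% of windows (41.1% of all and 43.2% of tested genes) and the TATA box (TATAAA) in 7.46% (15.7% and 9.32%). The NF-kappaB consensus site was in 0 of 67 (0.174% and 0.208%). The other patterns searched on both strands, 13 in all, were the exact palindromic site of nuclear respiratory factor 1, which holds the shorter form, a second YY1 core (ATGGCGGC), the E box (CACGTG), the SP1 site GGGGCGGGG, the ESRRA site TCAAGGTCA and the activator ACTACAA. A match is a string of letters and not a measured site.

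The 3 genes descended from bacterial S18 differed in response. Against the 2.18-fold and 1.83-fold rise of Mrps18b, Mrps18c, the direct counterpart in the small subunit, changed by log2 change 0.26 ± 0.10 (SE), adjusted p = 0.0251 in wild type and by log2 change 0.33 ± 0.10 (SE), adjusted p = 0.00616 in MCAD-/-. The wild-type call was lost with only the compared groups in the fit and without LPS mouse 1 or 2 or vehicle mouse 1, 2 or 5 (adjusted p up to 0.0785). Mrps18a, whose protein sits in the large subunit in ribosome structures, read 233, 305, 146, 309.8 and 285 units with vehicle and 332, 401, 349, 318 and 249 with LPS in wild type and did not pass (log2 change 0.40 ± 0.19 (SE), adjusted p = 0.0728). Without vehicle mouse 3, by far the lowest of its group, the change was 0.21 (adjusted p = 0.255), and without both arrays of high actin ratio 0.22 (adjusted p = 0.271), while it passed without LPS mouse 5 or vehicle mouse 2 or 4 (adjusted p down to 0.034). Its value in MCAD-/- was similar (log2 change 0.36 ± 0.19 (SE), adjusted p = 0.0994), and passed without wild-type vehicle mouse 3. Mrps30, likewise placed in the large subunit by structure, rose in both (log2 change 0.68 ± 0.12 (SE), adjusted p = 6.6e-05 and log2 change 0.54 ± 0.12 (SE), adjusted p = 0.000555).

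The stalk, which recruits the translation factors, was split. Mrpl12, the mobile stalk protein, fell from 793, 734, 694, 809.5 and 783 to 523, 632, 469.9, 636 and 419 units in wild type (log2 change −0.53 ± 0.14 (SE), adjusted p = 0.00361). In MCAD-/- it fell from 839.8, 820, 850.3, 842 and 613 to 459.7, 524, 503, 398 and 313 (log2 change −0.86 ± 0.14 (SE), adjusted p = 3.17e-05). Groups did not overlap in either genotype. Mrpl10, which anchors Mrpl12 to the ribosome, rose instead, from 324, 332, 298, 303 and 329 to 381, 428, 344, 398 and 423 units in wild type (log2 change 0.31 ± 0.09 (SE), adjusted p = 0.00425) and by log2 change 0.35 ± 0.09 (SE), adjusted p = 0.00169 in MCAD-/-. Mrpl11, at the base of the stalk, passed in wild type (log2 change 0.29 ± 0.10 (SE), adjusted p = 0.0114) and not in MCAD-/- (log2 change 0.20 ± 0.10 (SE), adjusted p = 0.0701), where it passed without vehicle mouse 4. Its wild-type change was −0.10 with the mean of all its probe sets, so that its direction depends on the probe set.

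Other sites of the large subunit were mixed too. Of the 5 genes of the central protuberance, Mrpl40, Mrpl46 and Mrpl52 rose in both genotypes, by log2 changes of 0.46 to 0.65, and Mrpl38 passed in neither. The fifth, Mrpl48, fell in MCAD-/- (log2 change −0.51 ± 0.12 (SE), adjusted p = 0.000806) and did not pass in wild type (log2 change −0.20 ± 0.12 (SE), adjusted p = 0.15). Of the 7 genes around the exit tunnel, Mrpl17 and Mrpl45 rose and Mrpl23 fell in both genotypes, the last by log2 change −0.62 ± 0.11 (SE), adjusted p = 4.22e-05 and log2 change −0.79 ± 0.11 (SE), adjusted p = 2.39e-06. Mrpl24 rose in wild type only by the test (log2 change 0.30, and 0.16 in MCAD-/-), a difference that the interaction test did not call (adjusted p = 0.555), and Mrpl4, Mrpl22 and Mrpl47 passed in neither. In wild type the change of Mrpl4 was 0.32 (adjusted p = 0.0632), 0.17 without vehicle mouse 3 and 0.18 without both arrays of high actin ratio (adjusted p = 0.219 and 0.222), and it passed without LPS mouse 3 (0.38, adjusted p = 0.0393). Mrpl4 and Mrpl47 passed in MCAD-/- without wild-type vehicle mouse 3, and Mrpl47 also without MCAD-/- vehicle mouse 1.

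Of the 4 genes at the peptidyl transferase centre, where peptide bonds form, Mrpl3 passed in neither genotype, with log2 changes of 0.10 and −0.13. Mrpl16 passed in wild type alone (0.27, adjusted p = 0.0107) and Mrpl2 in MCAD-/- alone (−0.31, adjusted p = 0.00419). Mrpl27 passed in MCAD-/- (0.31, adjusted p = 0.00488) and not in wild type (0.13, adjusted p = 0.193), where it passed without the 2 arrays of high actin ratio (0.22, adjusted p = 0.0296) and with the mean of probe sets (0.23, adjusted p = 0.0448). None of these passed the interaction test (adjusted p from 0.448 to 0.685). Mrpl41 rose in both genotypes (log2 change 0.32 ± 0.12 (SE), adjusted p = 0.0219 and log2 change 0.31 ± 0.12 (SE), adjusted p = 0.0227). Its wild-type call was lost with the compared groups alone, with the mean of probe sets and without LPS mouse 4 or vehicle mouse 2 or 4, and the MCAD-/- call without LPS mouse 3 or vehicle mouse 3 (adjusted p up to 0.0719). Mrpl58, a peptidyl-tRNA hydrolase that frees stalled ribosomes and is also built into the large subunit, stayed within 388 to 467 units in all 20 mice and passed in no comparison.

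In the small subunit, Mrps12, the decoding-centre protein, read 404, 474, 222, 455 and 468 units in wild type with vehicle and 448, 496, 362, 498 and 377 with LPS, and passed in no comparison. Vehicle mouse 3 stood far below the others, and without it the log2 change was −0.06 in place of 0.15. Mrps16 and Mrps5, which have bacterial counterparts, fell in both genotypes. Mrps16 went from 362, 328, 404, 305 and 353 to 289.6, 289.9, 212, 296 and 246 units in wild type (log2 change −0.40 ± 0.13 (SE), adjusted p = 0.0103) and from 319.5, 376, 308, 368 and 299.6 to 216, 225, 145, 211 and 192 in MCAD-/- (log2 change −0.77 ± 0.13 (SE), adjusted p = 3.08e-05). Mrps5 changed by log2 change −0.43 ± 0.11 (SE), adjusted p = 0.00218 and log2 change −0.35 ± 0.11 (SE), adjusted p = 0.0103, the second of which did not pass with the mean of its probe sets (adjusted p = 0.0851).

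Mrps2 rose in both genotypes (log2 change 0.30 ± 0.09 (SE), adjusted p = 0.00887 and log2 change 0.25 ± 0.09 (SE), adjusted p = 0.0252), but passed in neither with the mean of its probe sets (adjusted p = 0.137 and 0.151), and its MCAD-/- call was lost with the compared groups alone and without LPS mouse 2 or 5 or vehicle mouse 3. Mrps7, a protein of the small-subunit head, passed in wild type (log2 change 0.35 ± 0.10 (SE), adjusted p = 0.00331) and not in MCAD-/- (log2 change 0.11 ± 0.10 (SE), adjusted p = 0.312), and Mrps22, a mitochondria-specific protein, passed in MCAD-/- (log2 change 0.56 ± 0.13 (SE), adjusted p = 0.000722) and not in wild type (log2 change 0.29 ± 0.13 (SE), adjusted p = 0.0546), where 7 alternatives called it, among them without vehicle mouse 3 and without LPS mouse 5. Mrps34, also mitochondria-specific, rose in wild type (log2 change 0.38 ± 0.12 (SE), adjusted p = 0.0122) but not without the 2 arrays of high actin ratio (0.21, adjusted p = 0.0753), and did not pass in MCAD-/- (log2 change −0.03 ± 0.12 (SE), adjusted p = 0.87).

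Grouped by origin, the median log2 change in wild type was 0.11 for the 28 large-subunit genes with bacterial counterparts (10 rose, 6 fell) and 0.23 for the 19 mitochondria-specific ones (9 rose, 2 fell). In the small subunit the medians were 0.03 for 18 genes with bacterial counterparts (5 rose, 3 fell) and 0.34 for 10 mitochondria-specific ones (4 rose, 1 fell). In MCAD-/- the same 4 medians were 0.10, 0.07, −0.03 and 0.23. The mitochondria-specific genes had the higher median in 3 of these 4 pairs, and Mrps36 was left out of both classes. Over all tested genes 40% rose and 24% fell in wild type, and the differences between the classes were not tested.

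Both subunits held genes that rose and genes that fell. In wild type 19 of 47 large-subunit genes rose with LPS and 8 fell, against 9 and 5 of 29 in the small subunit, with median log2 changes of 0.19 and 0.14. In MCAD-/- 13 and 12 of 47 moved against 8 and 6 of 29, with medians of 0.10 and 0.01. The median of the large minus that of the small subunit was 0.06 in wild type and 0.09 in MCAD-/-. It was −0.04 between genotypes with vehicle and −0.05 with LPS. A different measure was taken in single mice, from each gene's log2 level minus its mean over all arrays. The median of the small subunit was subtracted from that of the large. The SD of this measure within groups was 0.05, which describes single mice and not a difference between groups. Its means in wild type were 0.003 with vehicle and 0.026 with LPS, and in MCAD-/- −0.022 and −0.006. With the mean of probe sets, the difference between the subunits' median log2 changes for LPS was −0.02 in wild type and −0.03 in MCAD-/-.

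The 2 subunits went together in the LPS mice of both genotypes but not in the wild-type vehicle mice, whose values lay close together. Taking each gene's level minus its mean over the 20 arrays, the median of the large subunit in the 5 wild-type LPS mice was 0.16, 0.22, 0.04, 0.09 and −0.05, and that of the small subunit 0.18, 0.16, −0.07, 0.09 and −0.04. LPS mice 1 and 2 were thus the highest in both, and mouse 5 was below 0 in both. In wild type with vehicle the large subunit ran from −0.07 to −0.01 and the small from −0.06 to 0.01, so the LPS mice overlapped with them. Vehicle mice 1 and 2 were the lowest in the large subunit (−0.07 and −0.04) and the highest in the small (−0.03 and 0.01). In MCAD-/- the large subunit ran from −0.11 to 0.03 with vehicle and from −0.10 to 0.11 with LPS, and the small subunit from −0.08 to 0.02 and from −0.05 to 0.05. From mouse 1 to 5, the MCAD-/- LPS mice read 0.012, 0.105, −0.103, −0.02 and −0.028 in the large subunit. In the small subunit they read 0.023, 0.052, −0.049, −0.004 and −0.026, the same order of mice.

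**Figure D3:**
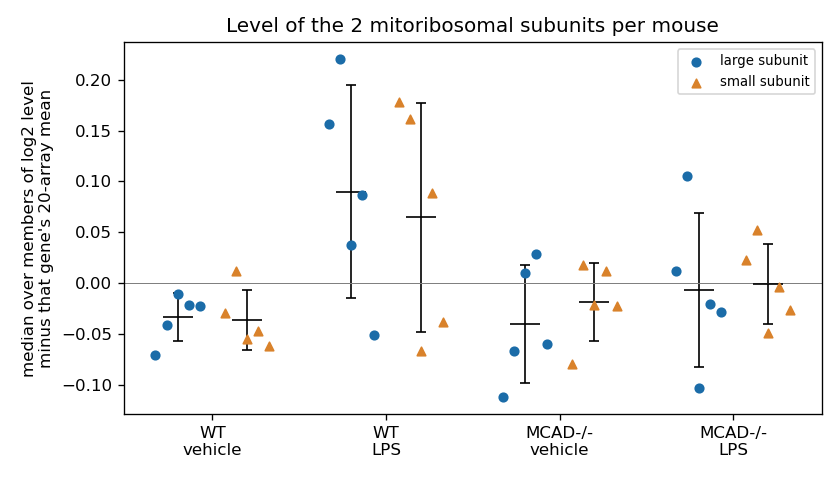
The y axis gives, for each mouse, the median over the large-subunit genes (circles) or small-subunit genes (triangles) of the log2 level minus that gene's mean over 20 arrays, in the 4 groups on the x axis, with the mean ± SD of 5 mice. The 2 subunits overlap in every group, and the wild-type LPS mice are the most spread, from −0.05 to 0.22 in the large subunit.

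Between genotypes with vehicle, 2 mitoribosome genes were higher in MCAD-/- (Mrps36 and Mrpl47) and 3 lower (Mrpl33, Mrps27 and Mrpl27), 5 of 76 against 16.2% of all tested genes (9.81% higher and 6.39% lower). The median log2 difference over the 76 was 0.01, and 0.04 over all tested genes. Without overlap between the groups, 3 of the 76 were higher and 2 lower, against 7.68% and 6.11% of all tested genes (13.8% in all). The count fell to 2 without MCAD-/- mouse 1 and to 3 without MCAD-/- mouse 4 or 5 or wild-type mouse 2, 4 or 5.

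Mrps36 was the clearest, at 99.4, 96, 82.9, 121 and 128 units in MCAD-/- and 60.6, 63.2, 69.2, 65.3 and 56 in wild type (1.66-fold, log2 change 0.73 ± 0.15 (SE), adjusted p = 0.00183). Every MCAD-/- mouse was above every wild-type mouse, and the call held in every alternative tried. With LPS the difference was smaller and did not pass (log2 change 0.42 ± 0.15 (SE), adjusted p = 0.0534), although it passed in 7 alternatives, among them without MCAD-/- LPS mouse 3 and without MCAD-/- vehicle mouse 3 or 5 (adjusted p down to 0.0127).

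Mrpl33, a small protein near the exit site of the transfer RNA, was lower in MCAD-/- with either injection. With vehicle it read 70.7, 73, 70.6, 74.4 and 77.5 units in MCAD-/- and 97.7, 88.8, 129.6, 101 and 98 in wild type (log2 change −0.48 ± 0.10 (SE), adjusted p = 0.00189). With LPS it read 93.1, 98.5, 111, 85.1 and 95 against 144, 142, 127, 144 and 135 (log2 change −0.52 ± 0.10 (SE), adjusted p = 0.000805). The genotypes did not overlap under either injection. It also rose with LPS in both genotypes (log2 change 0.43 ± 0.10 (SE), adjusted p = 0.000746 and log2 change 0.39 ± 0.10 (SE), adjusted p = 0.00164), so that MCAD-/- mice with LPS came to the level of wild-type mice with vehicle. Of its 2 probe sets the other was below 16 units on all arrays, and with the mean of the 2 the difference with LPS did not pass (adjusted p = 0.0963), nor did the LPS rises (adjusted p = 0.194 and 0.0618).

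Mrpl47, at the exit of the tunnel, was higher in MCAD-/- with either injection. With vehicle it read 177, 149, 141, 151 and 174 units against 118, 116, 156, 117 and 126 (log2 change 0.33 ± 0.10 (SE), adjusted p = 0.0325), overlapping only through wild-type mouse 3. With LPS it read 186, 171, 204, 167 and 189.7 against 134, 129, 125, 143 and 117 without overlap (log2 change 0.50 ± 0.10 (SE), adjusted p = 0.00154). The vehicle call was lost with only the compared groups in the fit and without MCAD-/- mouse 1, 4 or 5 or wild-type mouse 1, 2, 4 or 5 (adjusted p up to 0.0928), while without wild-type mouse 3 the log2 difference was 0.41. Mrpl47 and Acadm both lie on chromosome 3, at 32.7 and 153.9 Mb of GRCm38.p6. Mrpl9, Mrpl24, Mrps21 and Mrps28, also on chromosome 3, were called between genotypes under neither injection. The part of location in the difference was not tested. The other 2 probe sets of Mrpl47 were below 16 units on all arrays, and the mean of the 3 turned both differences, to −0.29 and −0.20.

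Mrps27, a small-subunit protein with repeats that bind RNA, was lower in MCAD-/- with vehicle, at 38.5, 42.6, 47.4, 46.4 and 36.8 units against 60.6, 56.2, 46.4, 55.1 and 68.6 (log2 change −0.43 ± 0.14 (SE), adjusted p = 0.0395). The groups overlapped, and the call was lost without a filter and without MCAD-/- mouse 1, 2 or 5 or wild-type mouse 1, 2, 4 or 5 (adjusted p up to 0.108). Mrpl27, near the peptidyl transferase centre, read 851, 1011, 962, 939 and 954 units against 1066, 1130, 1326, 1145 and 1142 (log2 change −0.30 ± 0.09 (SE), adjusted p = 0.0252), without overlap. Its call was lost with the mean of probe sets and without MCAD-/- mouse 1 or 4 or wild-type mouse 3 (adjusted p up to 0.107).

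With LPS, 2 genes were higher in MCAD-/- than in wild type (Mrpl47 and Mrps31) and 6 lower (Mrpl33, Mrps16, Mrpl48, Mrpl13, Mrps24 and Mrpl16), 8 of 76 against 20.6% of all tested genes (8.75% higher and 11.8% lower). The median log2 difference was −0.09, against −0.03 over all tested genes, and 56 of the 76 differences were negative (73.7%, against 53.6%). Only 1 gene lay higher and 4 lower without overlap, against 5.44% and 7.36% of all tested genes. With only the 2 compared groups in the fit 3 genes were called, and the count was 4 without MCAD-/- mouse 3 or wild-type mouse 2 and 5 without wild-type mouse 4.

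Mrps16 read 216, 225, 145, 211 and 192 units in MCAD-/- and 289.6, 289.9, 212, 296 and 246 in wild type (log2 change −0.44 ± 0.13 (SE), adjusted p = 0.0201). MCAD-/- mice 1 and 2 lay above wild-type mouse 3, so the groups overlapped. Its call was lost with the compared groups alone and without MCAD-/- mouse 3 or wild-type mouse 1 or 2 (adjusted p up to 0.0687). Mrpl13, a large-subunit protein with a bacterial counterpart, read 372, 415, 405, 378 and 363 units in MCAD-/- and 468, 474, 474, 505 and 534 in wild type, without overlap (log2 change −0.34 ± 0.08 (SE), adjusted p = 0.00434). The call held in every alternative but the mean of its 4 probe sets (−0.12, adjusted p = 0.406). A second probe set of Mrpl13, nearly as bright as the one used, did not pass (−0.24, adjusted p = 0.0789 in limma over single probe sets).

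Mrpl48 was lower in MCAD-/- (log2 change −0.36 ± 0.12 (SE), adjusted p = 0.0327), a call lost in 9 alternatives, among them without the 2 arrays of high actin ratio (adjusted p = 0.0533), without MCAD-/- mouse 3, 4 or 5 and without wild-type mouse 1, 2 or 4. Mrps31, a mitochondria-specific small-subunit protein, read 684, 796, 845, 670.1 and 643 units against 664, 608, 579, 546 and 517 (log2 change 0.32 ± 0.10 (SE), adjusted p = 0.0304), and lost its call with the compared groups alone and without MCAD-/- mouse 2 or 3 or wild-type mouse 4 or 5 (adjusted p up to 0.0896). The 2 smallest differences were those of Mrps24, at 383, 373, 313, 432 and 367 against 432, 498, 426, 497 and 438 units (log2 change −0.30 ± 0.09 (SE), adjusted p = 0.0266), and Mrpl16, at 645, 623, 591, 604 and 669 against 750, 873, 707, 701 and 782 (log2 change −0.28 ± 0.09 (SE), adjusted p = 0.0263). The groups overlapped in Mrps24 and not in Mrpl16. A second probe set of Mrps24, nearly as bright, did not pass (−0.16, adjusted p = 0.375 in limma over single probe sets).

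**Figure D4:**
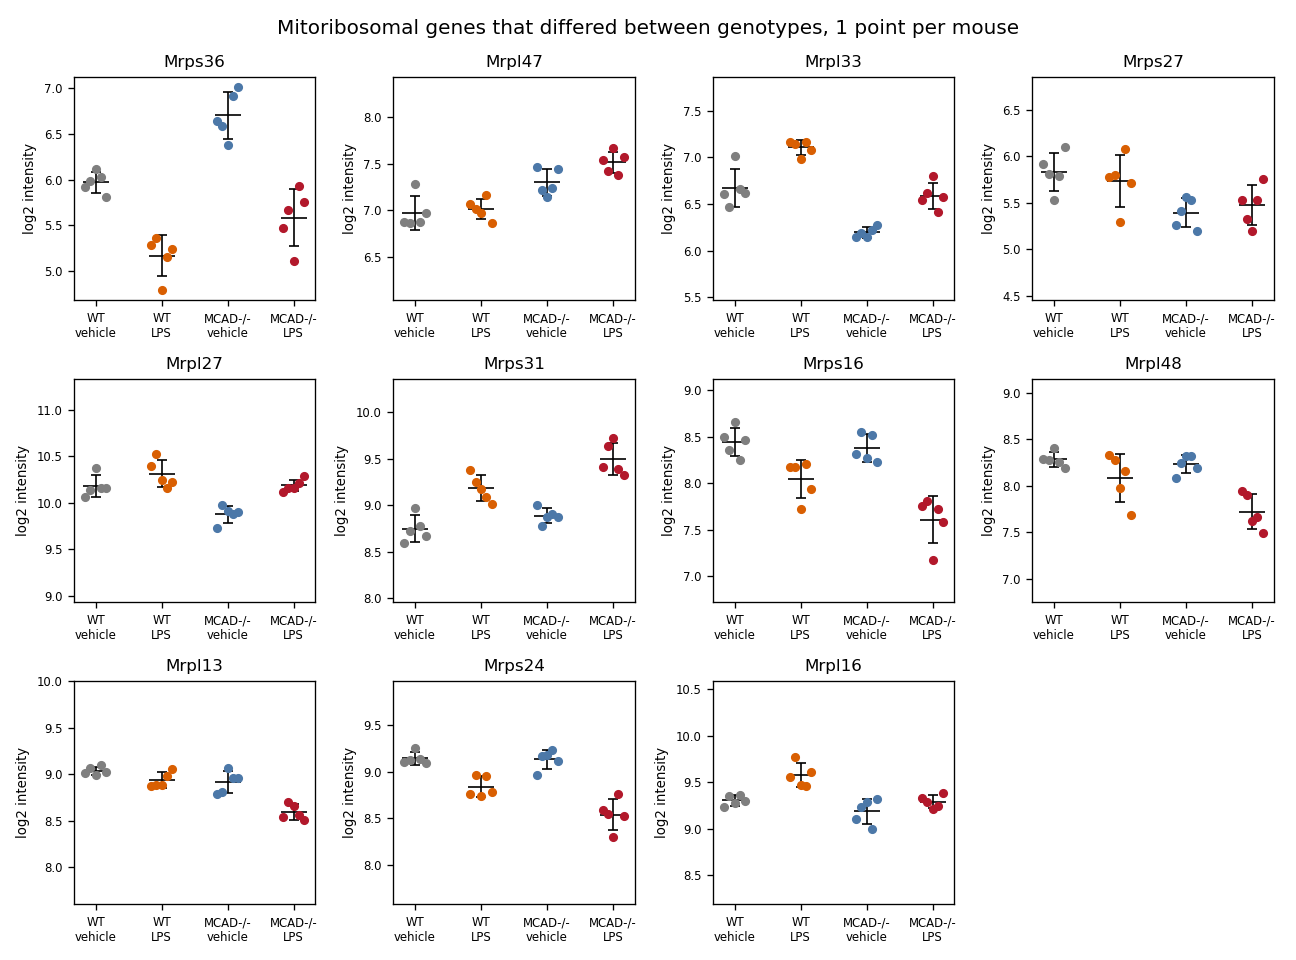
Each panel gives log2 intensity (y axis) in the 4 groups for 1 of the 11 genes called between genotypes with vehicle or with LPS, with 1 point per mouse and the mean ± SD of 5 mice. Mrps36 is higher in every MCAD-/- vehicle mouse than in every wild-type vehicle mouse, Mrpl33 is lower in MCAD-/- without overlap under both injections, and most other panels show overlapping groups.

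The interaction asks whether MCAD-/- mice responded to LPS differently from wild type, with negative values for a lower response in MCAD-/-. It was called for 0 of the 76 genes (limma), against 4.11% of all tested genes, 1.36% higher and 2.76% lower. At an unadjusted p under 0.05 there were 5 of 76, against 19.9% of all tested genes, and all 5 were negative. These were Mrpl51, Mrps34, Mrps6, Mrps24 and Mrps35, named after their values were seen. Mrpl51, a mitochondria-specific large-subunit protein, had the smallest adjusted p. It rose in wild type from 1147, 1033, 1045, 1075 and 1069 to 1433, 1413, 1304, 1722 and 1430 units and went from 1356, 1192, 1092, 1260 and 1344 to 1272, 1300, 1341, 1291 and 1322 in MCAD-/- (log2 change −0.37 ± 0.12 (SE), adjusted p = 0.0893). The interaction was negative in 58 of the 76 genes (76.3%, against 58.3% of all tested genes), with a median of −0.11, against −0.07 over all tested genes. Genes of 1 sample are not independent replicates, so these shares are a description.

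Families that work with the mitoribosome responded differently to LPS. Of 39 tested cytosolic ribosomal protein genes, 28 rose in wild type and 23 in MCAD-/-, and 0 fell in either (limma; 0 also fell at an unadjusted p under 0.05), with median log2 changes of 0.29 and 0.25. Of 72 tested nuclear genes for subunits of oxidative phosphorylation, 56 fell in wild type and 61 in MCAD-/-, and 1 rose in each, with medians of −0.37 and −0.41. The mitoribosome genes lay between the 2, with the middle 50% of genes running from −0.12 to 0.38 in wild type and from −0.15 to 0.34 in MCAD-/-. Of all tested genes, 40% rose and 24% fell in wild type, and 38.1% rose and 27.6% fell in MCAD-/-. The difference between families was not tested.

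**Figure D5:**
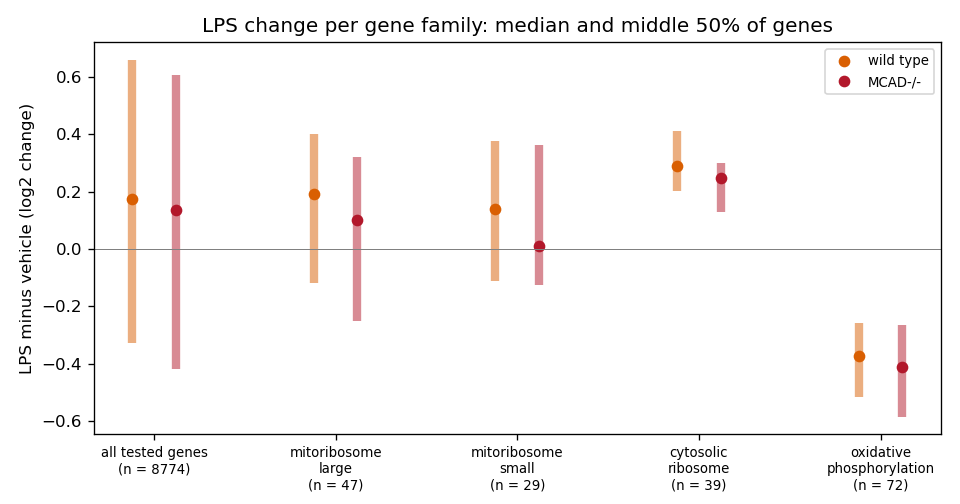
Points give the median log2 change after LPS (y axis) and bars the middle 50% of genes, for all 8774 tested genes, the large (47) and small (29) mitoribosomal subunit, the cytosolic ribosome (39) and oxidative phosphorylation (72), in wild type and MCAD-/-. The bars of the mitoribosome span 0, those of the cytosolic ribosome lie above it and those of oxidative phosphorylation below it in both genotypes.

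Among mitoribosome subunits that carry other names, 4 were tested. Dap3, a small-subunit protein that binds GTP, rose in MCAD-/- (log2 change 0.46, adjusted p = 0.000348) and did not pass in wild type (0.20, adjusted p = 0.0744). Ptcd3, an RNA-binding small-subunit protein, fell in both (−0.27 and −0.35, adjusted p = 0.0353 and 0.00934). Its wild-type change was 0.02 with the mean of its probe sets, which also ended the call in MCAD-/- (adjusted p = 0.514), and the wild-type call was lost without LPS mouse 1 or 5 or vehicle mouse 1, 3 or 5, and without both arrays of high actin ratio (adjusted p = 0.0808). Chchd1 fell in MCAD-/- alone by the test (−0.31, adjusted p = 0.0393, and −0.12 in wild type), a call lost without LPS mouse 1, 3 or 5 or vehicle mouse 2, 3 or 4 (adjusted p up to 0.122). Gadd45gip1 rose in wild type alone by the test (0.63, adjusted p = 0.029, and 0.20 in MCAD-/-), which was lost without LPS mouse 2 or 4 or vehicle mouse 3 (adjusted p up to 0.0742), and without both arrays of high actin ratio (0.52, adjusted p = 0.113).

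Of 23 tested genes of mitoribosome assembly, 11 rose and 3 fell with LPS in wild type, and 10 rose and 4 fell in MCAD-/-. The share called was 60.9% in each, against 64% and 65.7% of all tested genes. Ddx28, an RNA helicase of large-subunit assembly, went from 75.1 to 959.2 units in wild type and from 83.0 to 1121 in MCAD-/- (log2 changes 3.68 and 3.76, adjusted p = 2.26e-12 and 1.39e-12). Dhx30 (1.03 and 0.70) and Trub2 (1.18 and 1.17) rose as well, and the lowest changes of the list were −0.73 in wild type and −0.78 in MCAD-/-. Of 11 translation factors, 2 rose and 2 fell in each genotype (36.4% called). Their log2 changes ran from −0.44 to 0.79 in wild type and from −0.96 to 0.51 in MCAD-/-. Tufm, the mitochondrial elongation factor that brings transfer RNA to the ribosome, fell in wild type (−0.36, adjusted p = 0.0293) and in MCAD-/- (−0.96, adjusted p = 5.37e-06), and was lower in MCAD-/- than in wild type with LPS (−0.47, adjusted p = 0.0204). Without both arrays of high actin ratio the wild-type change was −0.55 (adjusted p = 0.000537). The wild-type fall was lost without LPS mouse 1, 2 or 3 or vehicle mouse 1, 2 or 5, and the genotype difference without MCAD-/- mouse 3 or wild-type mouse 4 (adjusted p up to 0.18, with the mean of probe sets).

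Of 16 tested mitochondrial aminoacyl-tRNA synthetases, which charge transfer RNAs, 4 rose and 5 fell in wild type and 5 rose and 7 fell in MCAD-/-. Of 16 genes of mitochondrial transcription and RNA handling, 4 rose and 4 fell in wild type and 3 and 3 in MCAD-/-. The shares called were 56.2% and 75% for the first list and 50% and 37.5% for the second, against 64% and 65.7% of all tested genes. Lrpprc, which stabilises mitochondrial messenger RNA, fell with LPS in wild type (−0.28, adjusted p = 0.0253) and rose in MCAD-/- (0.41, adjusted p = 0.00222), and the interaction passed (0.69, adjusted p = 0.0119). The fall in wild type was lost without LPS mouse 3 or 5 or vehicle mouse 3 or 4 (adjusted p up to 0.0658), and without both arrays of high actin ratio (−0.23, adjusted p = 0.0757).

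Of 8 tested regulators of mitochondrial biogenesis, 2 rose and 5 fell with LPS in wild type and 3 rose and 4 fell in MCAD-/-. The share called was 87.5% in each, against 64% and 65.7% of all tested genes. Ppargc1b, a coactivator of mitochondrial genes, averaged 79.2 units in wild type with vehicle, 17.4 with LPS, 179.6 in MCAD-/- with vehicle and 13.6 with LPS. It fell in both genotypes to about the 16 units of the filter, so the sizes of the 2 falls were not compared, and with vehicle it was higher in MCAD-/- (1.18, adjusted p = 0.00175). Ppargc1a, its relative, was higher in MCAD-/- with either injection (1.75 and 1.83, adjusted p = 0.000867 and 0.000493). Gabpa, the subunit of GABP that binds the ETS core, fell with LPS in both genotypes (−0.70 and −0.49, adjusted p = 5.33e-06 and 0.000268), the second not with the mean of its probe sets (adjusted p = 0.579).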

How the data were processed

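Total RNA of 1 liver per mouse was labelled with biotin and hybridised to 1 Affymetrix array, per the labels' protocols. The deposited values are linear intensities that the authors summarised with GCRMA (version not given in the sources used here), per the submitters' processing notes. The method models nonspecific binding, which draws weak signals together and can shrink their differences, and the number of arrays limits the precision. The replicates are separate mice.

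Intensities were turned to log2 here, without further normalization. Of 45101 probe sets, 34945 had 1 gene symbol in the platform annotation, 932 had several, 64 were controls and 9160 were not listed there. The brightest probe set stood for its gene. Genes above 16 units on at least 5 arrays were tested with limma 3.58.1 in R 4.3.3 (lmFit and eBayes, 4 group means, 5 contrasts, two-sided, Benjamini-Hochberg over 8774 genes, threshold 0.05), a pipeline tested on simulated data. A level is in intensity units, and levels of different probe sets were not compared.

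The genes, gene lists, tests and named genes were chosen with earlier results of these data known. Named are the 4 largest rises and falls among the calls of each comparison, a fixed panel by role, and genes of the fixed lists that the text turns on. Mrps24, Mrpl16, Mrpl51, and the genes listed by site outside that panel, were named after their values were seen. The alternatives were a replicate block, no filter, a filter of 64 units, averaging all probe sets of a gene, median centring, quantile normalization, only the compared groups, subunits by structure and leaving out each mouse. Leaving out the 2 arrays of high actin ratio was added after seeing the data. The symbols of all 76 genes matched RefSeq by gene ID. Promoters are RefSeq's, and Aurkaip1, 1 more mitoribosome subunit, was not analysed here.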

Additional observations from a re-analysis of the deposited data

Results flagged for a closer look

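In 13 of 152 sets of 5 mice (8.55%), 1 mouse stood apart from the other 4 by Dixon's criterion, which chance meets in about 1 in 20. The sets were the 4 groups for each of the 36 named mitoribosome genes and for the medians of both subunits, and 6 of the 13 values came from wild-type vehicle mouse 3, whose actin ratio was 3.18. That mouse was low in Mrpl17 (log2 level 8.90), Mrpl4 (7.29), Mrps12 (7.79) and Mrps18b (8.40), and high in Mrpl47 (7.28) and Mrps30 (7.41). Among the MCAD-/- vehicle mice, mouse 5 was low in Mrpl12 (9.26) and Mrps18b (8.69), and mouse 3 in Mrps2 (8.25). Among the MCAD-/- LPS mice, mouse 4 was low in Mrpl46 (7.40) and Mrps18b (9.49). Wild-type LPS mouse 3 was low in Mrpl58 (8.60), and wild-type vehicle mouse 1 was high in Mrps35 (7.80). The part of array quality in these values was not tested.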

How the results depend on the processing

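The number of mitoribosome genes called after LPS stayed between 38 and 45 in wild type and between 34 and 43 in MCAD-/- over the alternatives on all mice or without the 2 arrays of high actin ratio, and between 39 and 47 and between 36 and 43 when single mice were left out. The interaction was called for 0 genes in every alternative. The genotype differences were less stable. With LPS, 3 genes were called with the compared groups only, and 4 to 9 when a mouse was left out. With vehicle, 2 to 5 genes were called when a mouse was left out.

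The large minus small subunit difference after LPS was −0.029 in MCAD-/- and −0.016 in wild type with the mean of probe sets, 0.155 in MCAD-/- with quantile normalization and 0.106 in wild type with subunits by structure. The interaction's was −0.042 without the 2 arrays of high actin ratio. Leaving out single mice gave 0.002 to 0.113 (LPS in MCAD-/-), −0.002 to 0.136 (LPS in wild type), −0.049 to 0.015 (genotype with vehicle), −0.064 to −0.023 (genotype with LPS) and −0.083 to 0.059 (interaction). The causes were not tested.

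With the mean of probe sets, 4 called changes turned: Mrpl11 after LPS in wild type (−0.096), Ptcd3 likewise (0.017), and Mrpl47 between genotypes with LPS (−0.204) and with vehicle (−0.29). The other probe sets of Mrpl47 were below 16 units on all arrays, and for the others the cause was not tested. The same setting moved the share of higher calls after LPS in wild type from 68.3% to 56.4%. Of 25 genes with several tested probe sets, 17 had the same sign in all of them after LPS, and Mrpl1 in wild type and Mrpl15 in MCAD-/- were called in opposite directions.

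Replicate numbers did not pair the mice. Same-numbered mice correlated between −0.121 and 0.284, over 0.1 in 5 of 20 pairs. With the replicate block 44 genes were called after LPS in wild type, 39 in MCAD-/-, 5 between genotypes with vehicle, 10 with LPS and 0 in the interaction. Of 60 called results of the 36 named genes, 39 kept direction and threshold in every alternative and 19 lost the threshold in at least 1.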
